A study of Caenorhabditis elegans with 8 samples.

Results

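*age-1(mg44)* adults lack zygotic activity of AGE-1, the catalytic subunit of phosphatidylinositol 3-kinase in the insulin-like pathway of *C. elegans*. They were compared with wildtype N2 adults on 2 of the 8 arrays of the series, those whose titles name *age-1(mg44)*. Each array carried RNA of the mutant labelled with Cy3 (green) and RNA of wildtype labelled with Cy5 (red). The mutant animals came from SP75, genotype *sqt-1(sc13) age-1(mg44)/mnC1*, and were homozygotes with *age-1*-positive, heterozygous mothers (m+z-), which let them reach adulthood. The other 6 arrays carried CY262 (3 arrays, *age-1* restored in the intestine) or CY251 (3 arrays, *age-1* restored in neurons), from the transgenes *bvIs1* and *bvIs2* in turn, in the same *sqt-1(sc13) age-1(mg44)* background. The promoters of these transgenes are not given in the sources used here. All animals had grown for 72 h at 20°C on OP50 bacteria and were late L4 larvae or young adults, with wildtype at the same or a slightly later stage.

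Several features of this design limit what the ratio can show. N2 carries neither *sqt-1(sc13)* nor *age-1(mg44)*, so the effects of these alleles cannot be told apart. Stage and genotype cannot be told apart either. How homozygotes were separated from siblings with the balancer is not given in the sources used here. The dyes were not swapped, so unequal response of a probe to Cy3 and Cy5 adds to its ratio. Whether the arrays shared wildtype RNA is not known. Unless an alternative is named, p-values came from a model of all arrays of the series, which pools the spread within each strain. They measure only the spread between these samples, that of the strains with *age-1* restored as well as that of the 2 *age-1(mg44)* arrays.

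In this pathway the DAF-2 receptor activates AGE-1, whose lipid product recruits the kinases PDK-1 and AKT-1. These keep the transcription factor DAF-16/FOXO out of the nucleus. When signalling falls, DAF-16 enters the nucleus and acts on genes of stress resistance, metabolism, immunity and dauer formation.

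Values below are log2 ratios of *age-1(mg44)* to wildtype, so that a positive value means a higher signal in the mutant. A gene was called when its adjusted p in limma was under 0.05 and both *age-1(mg44)* arrays had the same sign. Of 18865 genes tested, 2174 (11.5%) were called higher and 1484 (7.87%) lower. Without replicate 1 of *age-1(mg44)* these counts were 511 and 429, and without replicate 2 they were 250 and 28. The median ratio was 1.24 among genes called higher and -0.79 among genes called lower. Most calls were shared with the restored strains. Of the 2174 called higher, 1970 were above 0 on all CY262 and CY251 arrays that measured them. Of the 1484 called lower, 1364 were below 0 on all of them. Among called genes, 517 rose at least 4-fold (2.74% of genes tested) and 13 fell at least 4-fold (0.0689%). Centring each array on its median in place of loess called 5486 genes higher and 5654 lower, and its counts are given beside several of the lists whose balance of calls it changes.

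The 2 arrays gave similar ratios across genes (Pearson 0.797, Spearman 0.694 over 18621 genes measured on both, which share loess normalization and probe design). Of these genes 6872 were above 0 on both arrays, 7355 were below 0 on both and 4394 had opposite signs. Replicate 1 was closer to replicate 1 of CY262 (Pearson 0.889) than to its own second replicate. Between 86.1% and 92.8% of the spots in a channel were well above background over the 8 arrays. In the wildtype channel of the *age-1(mg44)* arrays, 122 and 106 spots were saturated, and the folds of genes measured by such spots are given as bounds beside their ratios.

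**Figure D1:**
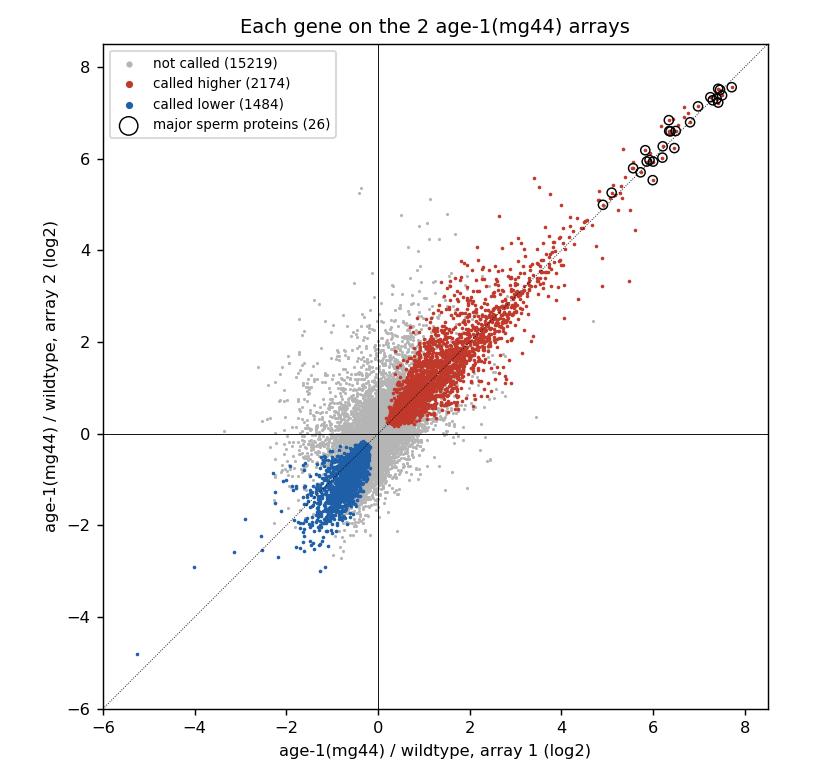
Log2 ratio of *age-1(mg44)* to wildtype for each gene, replicate 1 on the x axis and replicate 2 on the y axis. Red points are the 2174 genes called higher, blue points the 1484 called lower, grey points those not called, and black circles mark the 26 major sperm protein genes, which lie apart at the upper right.

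In the plot of one array against the other, every called gene lies above 0 on both axes or below 0 on both, by the rule for a call. Genes high on replicate 2 alone include 4 *hsp-16* genes, which are not among those called.

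The 4 largest rises were of major sperm protein genes. Major sperm proteins, the cytoskeletal and signalling proteins of nematode sperm, were called higher for all 26 measured genes, with a median log2 ratio of 6.48, against -0.01 over all genes. Their medians were 6.21 in CY262 and 6.60 in CY251, which are ratios to the same kind of wildtype sample. *msp-59* had ratios of 7.71 and 7.56 on the 2 arrays (7.63 ± 0.42, SE, adjusted p = 0.000327). *msp-31* had 7.39 and 7.31 (7.35 ± 0.08, adjusted p = 2.4e-07). Both arrays were high and close to each other for these genes. Probes of 15 of the 26 list several genes of the family, so single members cannot be separated. All 26 were also called higher with either *age-1(mg44)* array left out.

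Other sperm genes were called higher for 34 of 61, and none was called lower. Their median ratio was 1.38. *spch-1*, a sperm chromatin protein, had ratios of 6.68 and 7.13 (6.91 ± 0.15, adjusted p = 8.4e-06). *nspd-5*, of a nematode-specific family enriched in sperm, had 6.54 and 6.73, and *spch-3* had 5.56 and 5.93. Without replicate 1 the number called higher was 18, without replicate 2 it was 11, and with no background subtraction it was 15. Of the 80 genes that rose at least 16-fold (0.424% of genes tested), 38 were in these sperm lists. In whole animals, a change in the number of cells of a type and a change in RNA per cell cannot be told apart.

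Markers of male somatic neurons, *cwp-1* to *cwp-5*, *lov-1* and *pkd-2*, gave 0 calls of 7, with mean ratios between -0.14 and 0.02 and 0 at an unadjusted p under 0.05. They serve as a check for males, which also make sperm. Of the 7, 3 were above background in *age-1(mg44)* and 4 in wildtype. Under median centring in place of loess, 4 of them were called higher and 2 lower.

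Of 34 oocyte and eggshell genes, 14 were called lower and 1 higher, with a median of -1.12. *cpg-1*, a chondroitin proteoglycan of the eggshell, had ratios of -1.27 and -2.99 (-2.13 ± 0.53, adjusted p = 0.0374). *cbd-1*, a chitin-binding eggshell protein, had -1.16 and -2.91, and *mex-6*, a zinc-finger protein of oocyte and embryo polarity, had -1.71 and -2.49. Both arrays were below 0 and replicate 2 was lower for these genes. The medians of the list were -0.72 on replicate 1 and -1.77 on replicate 2, against -1.02 in CY262 and -0.97 in CY251. Without replicate 2, 1 gene of the list was called lower, and without replicate 1, 10 were. *cpg-7* was the member called higher, with 2.98 and 2.78.

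Genes of DNA replication and the cell cycle were called lower for 38 of 71 and higher for none, with a median of -0.73. The medians of this list were -0.71 in CY262 and -0.68 in CY251. *mcm-3*, a subunit of the replicative helicase, had ratios of -1.65 and -2.36 (SE 0.23, adjusted p = 0.0044). *rnr-1*, the large subunit of ribonucleotide reductase, had -1.49 and -2.33, and *cyb-1*, a mitotic cyclin B, had -1.50 and -1.96. Their values on the 2 arrays did not cross 0. Without replicate 1 the number called lower was 20, and without replicate 2 it was 3.

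Regulators of meiosis and the germ line were called lower for 12 of 53, among them *glp-1*, the Notch receptor that maintains germline stem cells, at -1.21 and -1.68, and *glh-2*, a germline helicase, at -1.11 and -2.13. Histone genes were called lower for 12 of 48, and probes of 19 of the 48 list several genes. Without replicate 1 the calls in these lists were 3 and 3, and without replicate 2 they were 1 and 1. None of the 101 genes in the lists was called higher. Argonautes bind the small RNAs that guide silencing. *ergo-1*, which acts with small RNAs of oocytes and embryos, had ratios of -1.33 and -1.87, and *wago-4*, an Argonaute of germline inheritance, had -0.89 and -1.95. *alg-3*, which acts in spermatogenesis, averaged 1.67. In all, 7 of the 22 were called lower, and *alg-3* was the member called higher. With replicate 1 left out 3 were called lower, and with replicate 2 left out 0 were.

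The 6 yolk protein genes gave 0 calls in limma, with 4 at an unadjusted p under 0.05 and 4 called lower under median centring. All 6 were saturated in wildtype on both arrays, and *vit-1* in *age-1(mg44)* was lower by at least 4.30-fold (ratios of -2.26 and -1.95, adjusted p = 0.0629). The bounds of the other 5 lay between 1.69-fold and 2.68-fold lower.

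**Figure D2:**
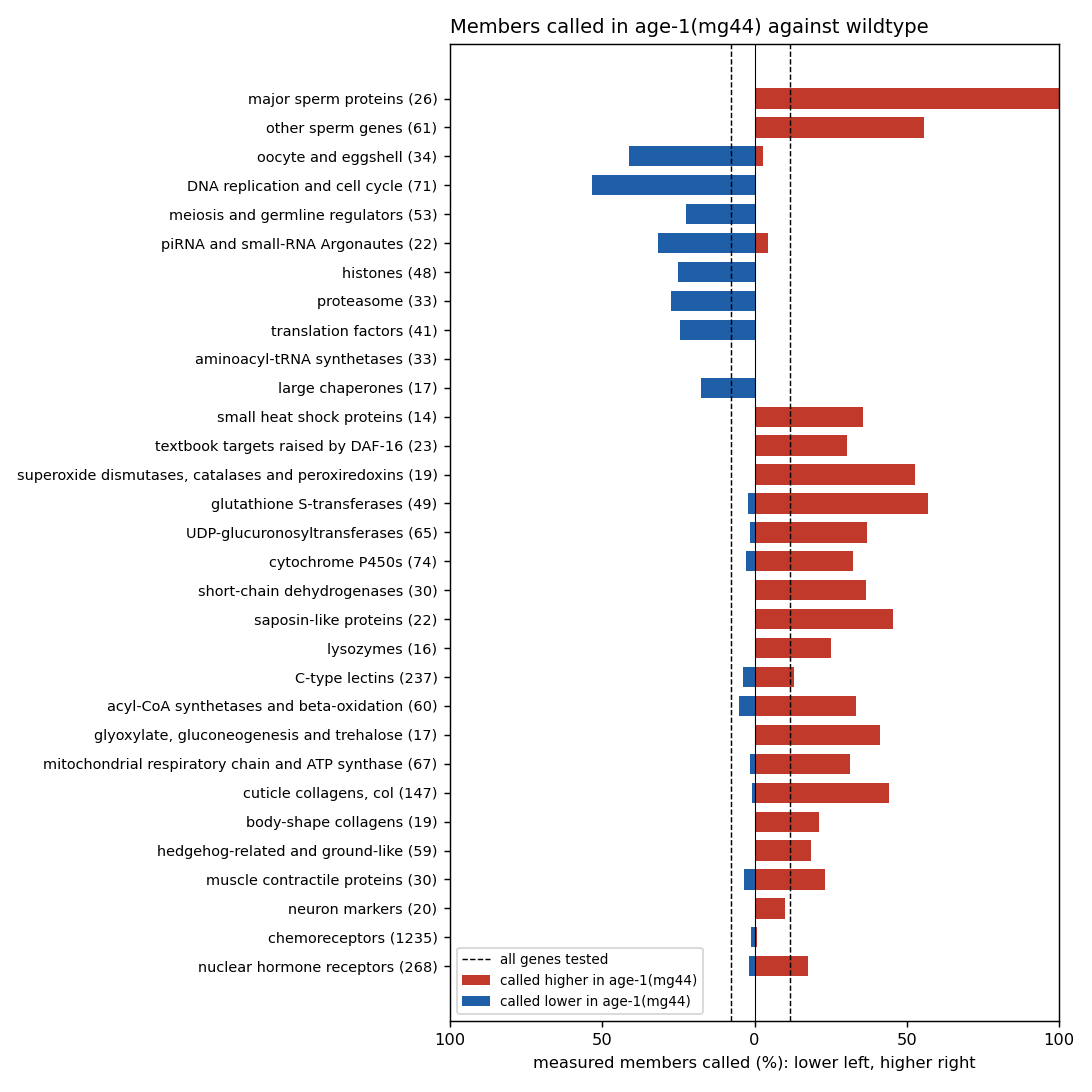
Share of the measured members of each gene list (number in brackets) called higher (red, to the right) or lower (blue, to the left) in *age-1(mg44)* against wildtype, in percent. Dashed lines mark the shares over all genes tested, 11.5% higher and 7.87% lower, and the bar of the major sperm proteins reaches 100%.

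In the plot of called members, sperm, detoxification, oxidative stress, saposin and collagen lists extend to the right, and oocyte, replication, germline and proteasome lists to the left. Other lists lie inside or near the dashed lines, such as C-type lectins, neuron markers, chemoreceptors and aminoacyl-tRNA synthetases.

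The 11 measured genes of the insulin-like pathway itself gave 4 calls, all lower. *age-1* had ratios of -1.06 and -1.64 (-1.35 ± 0.25, adjusted p = 0.016), against mean ratios of -1.47 in CY262 and -1.45 in CY251. *akt-1* had -0.49 and -0.77, and *pptr-1*, a phosphatase subunit that acts on AKT-1, had -0.49 and -0.67. None of the 4 was called with either *age-1(mg44)* array left out. The receptor gene *daf-2* had 0.01 and 0.30 and *daf-16* had 0.01 and -0.17, neither of which was called. Values of the other uncalled members were 0.44 and 0.57 for *akt-2*, 0.25 and 0.63 for *sgk-1*, -0.25 and -0.70 for *aap-1*, the adaptor subunit of the kinase, -0.44 and 0.05 for *pdk-1*, and 0.19 and -0.01 for *ist-1*. Of 24 insulin-like peptide genes 2 were called higher (8.33%, under the 11.5% over all genes), *ins-37* at 2.33 and 2.70 and *ins-23* at 0.52 and 0.86. *hsf-1*, the heat shock transcription factor, was called lower with -0.50 and -1.08.

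Textbook targets raised by DAF-16 were called higher for 7 of 23 and lower for none, with a median of 1.66. *sod-3*, a mitochondrial superoxide dismutase, had ratios of 3.99 and 4.98 (4.48 ± 0.32, adjusted p = 0.00181), against means of 4.47 in CY262 and 4.48 in CY251. *lys-7*, a lysozyme, had 5.47 and 3.33 (4.40 ± 0.91, adjusted p = 0.0213), against 2.29 and 2.10. *cdr-2*, of the cadmium-responsive family, had 3.86 and 3.98, against 2.53 and 2.07. For *sod-3* the mutant arrays overlapped the restored arrays (4.04 to 5.10). For *lys-7* they overlapped as well (0.56 to 4.28), while for *cdr-2* both lay above the restored arrays (1.53 to 3.03), with an adjusted p of 0.418 for the difference. Of the targets 5 were called higher without replicate 1 of *age-1(mg44)* and 3 without replicate 2.

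The 2 mutant arrays differed for the heat shock targets in this list. *hsp-16.48* had ratios of -0.36 and 5.35, *hsp-16.41* had -0.41 and 5.24, *hsp-16.1* had 0.50 and 4.77, and *hsp-16.2* had 0.90 and 4.53. These small heat shock proteins bind unfolded proteins, and they are named here after their values were seen. They were high on replicate 2 alone, and none was called (adjusted p between 0.13 and 0.341). The median of the list was 0.60 on replicate 1 and 2.27 on replicate 2. Of 14 small heat shock genes 5 were called higher, led by *hsp-17* at 2.29 and 3.63 and *hsp-12.3* at 2.53 and 2.74. Of 17 large chaperones 3 were called lower, among them *hsp-110* at -0.66 and -1.56 and *hsp-4*, the BiP chaperone of the endoplasmic reticulum, at -0.96 and -0.85. Textbook targets lowered by DAF-16 gave 1 call each way of 11 (9.09%, against 11.5% higher and 7.87% lower over all genes). These were *dod-23* at -3.14 and -2.59 and *dod-17* at 3.09 and 2.94. Leaving out replicate 1 of *age-1(mg44)* left 2 small heat shock genes called higher and 5 large chaperones called lower, and leaving out replicate 2 left 0 and 0.

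Glutathione S-transferases, which conjugate glutathione to reactive compounds, were called higher for 28 of 49 and lower for 1, with a median of 1.21. The medians of this list were 0.81 in CY262 and 0.75 in CY251. *gst-38* had ratios of 3.47 and 3.72 (3.59 ± 0.65, adjusted p = 0.015) and *gst-6* had 2.69 and 3.56. UDP-glucuronosyltransferases, which attach sugar to such compounds, were called higher for 24 of 65 and lower for 1 (median 0.65), with *ugt-44* at 2.17 and 3.78 and *ugt-63* at 3.02 and 2.81. Median centring called 23 of them higher and 14 lower. Cytochrome P450s, the oxidising enzymes, were called higher for 24 of 74 and lower for 2 (median 0.26).

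*cyp-35B1* led the cytochrome P450s with 4.88 and 3.22 (4.05 ± 0.58, adjusted p = 0.00746). Its means were 1.44 in CY262 and 1.23 in CY251, and the difference of 2.71 did not pass the threshold (adjusted p = 0.418). Without replicate 1, 11 glutathione S-transferases, 5 UDP-glucuronosyltransferases and 7 cytochrome P450s were called higher. Without replicate 2 these numbers were 2, 3 and 6.

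Short-chain dehydrogenases were called higher for 11 of 30, led by *dhs-4* at 2.15 and 4.08, and superoxide dismutases, catalases and peroxiredoxins for 10 of 19, led after *sod-3* by *gpx-7*, a glutathione peroxidase, at 1.94 and 2.91. Without replicate 1 these counts were 3 and 5, and without replicate 2 they were 3 and 1. None was called lower in these lists with loess, but with median centring the short-chain dehydrogenases had 4 called higher and 3 lower, with a median of 0.04 in place of 0.54, and the superoxide dismutase list had 6 higher and 3 lower. ABC transporters, which export conjugates, had 4 of 54 called higher (7.41%) and 5 lower (9.26%), against 11.5% and 7.87% over all genes. With median centring these counts were 8 and 16.

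**Figure D3:**
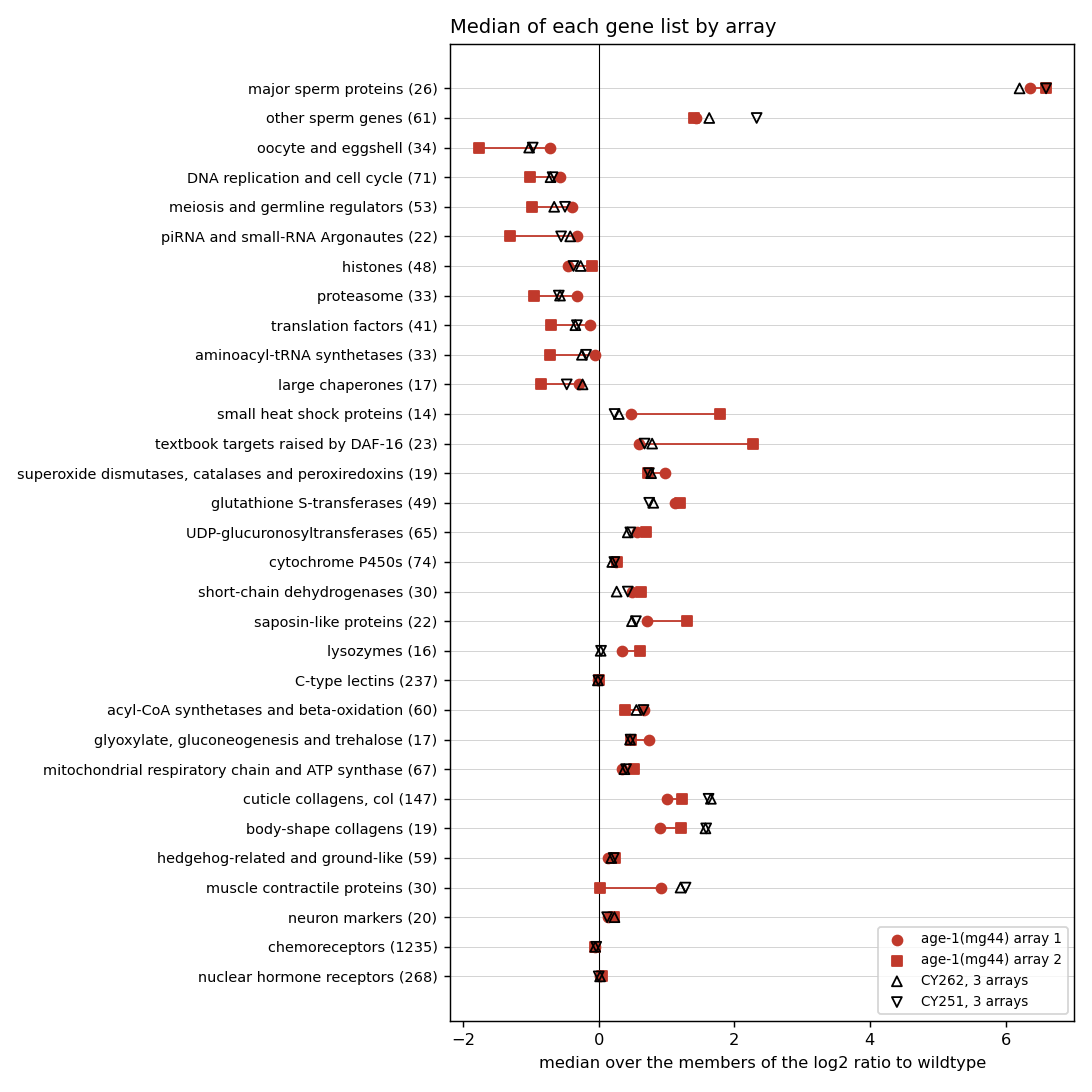
Median over the members of each gene list of the log2 ratio to wildtype (x axis), on *age-1(mg44)* replicate 1 (red circle) and replicate 2 (red square), joined by a line, and over the 3-array means of CY262 and CY251 (open triangles). The red marks are far apart for the small heat shock proteins, the textbook DAF-16 targets, the oocyte genes and the muscle contractile proteins.

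In the plot of list medians, the distance between the 2 mutant arrays was small for glutathione S-transferases (1.13 on replicate 1 and 1.21 on replicate 2) and larger for small heat shock proteins (0.48 and 1.80).

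Saposin-like proteins, some of which form pores in bacterial membranes, were called higher for 10 of 22 and lower for none (median 1.17). *spp-20* had ratios of 6.16 and 6.72 (6.44 ± 0.54, adjusted p = 0.0016), *spp-2* had 3.73 and 4.32, and *spp-12* had 3.76 and 3.21. Lysozymes were called higher for 4 of 16 and C-type lectins for 31 of 237, with 9 lower. The lectins' share of 13.1% higher is near the 11.5% over all genes, and their median was 0.00. Median centring called 111 lectins higher and 14 lower. Without replicate 1 of *age-1(mg44)*, 5 saposin-like proteins, 0 lysozymes and 10 lectins were called higher, and without replicate 2, 2, 0 and 3 were. *clec-52* had 4.03 and 4.49 and *clec-17* had 3.47 and 4.02. Epidermal antimicrobial peptides gave 1 call of 18 (5.56%, under the share over all genes), *nlp-24*, at 1.85 and 2.44.

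Of 147 *col* genes, which encode collagens of the cuticle, 65 were called higher and 1 lower, with a median of 1.12. The medians of this list were 1.655 in CY262 and 1.621 in CY251. *col-94* had ratios of 5.24 and 4.89 (5.06 ± 0.21, adjusted p = 0.000127), *col-129* had 4.66 and 4.54, and *col-85* had 4.50 and 4.61. *col-135* was the exception, at -4.02 and -2.90. The 2 measured markers of adult cuticle were both called higher, *col-19* at 3.58 and 3.52 and *col-7* at 2.91 and 2.05. For 5 of the *col* genes both channels were saturated, and no fold is given for them. Without replicate 1, 24 *col* genes were called higher, and without replicate 2, 18 were.

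Collagens that shape the body were called higher for 4 of 19, with *sqt-2* at 3.29 and 3.13 and *dpy-4* at 2.48 and 2.44. Their median was 1.355, against 1.575 in CY262 and 1.586 in CY251. *sqt-1*, the gene whose *sc13* allele these animals carry, had 0.88 and 0.60 and was not called (0.74 ± 1.19, adjusted p = 0.7). Its means were 2.15 in CY262 and 2.45 in CY251, but single arrays ran from 0.66 to 4.40 and from 0.32 to 4.92. The SE includes that spread. Larval moult genes gave 2 calls higher (9.09%, under the 11.5% over all genes), 1 lower and 19 none. *mlt-3* led the rises at 1.65 and 1.52, and median centring gave 3 higher and 9 lower. Hedgehog-related and ground-like genes, expressed in the epidermis, were called higher for 11 of 59 (18.6%, against 11.5% over all genes), led by *grd-10* at 3.05 and 3.04. With median centring 21 of them were higher and 8 lower. Body-shape and hedgehog-related lists had 2 and 2 members called higher without replicate 1, and 0 and 2 without replicate 2.

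Acyl-CoA synthetases and genes of beta-oxidation were called higher for 20 of 60 and lower for 3, with *acdh-1* at 3.79 and 3.97 and *acdh-8* at 3.10 and 3.09, both acyl-CoA dehydrogenases, against *cpt-1*, a carnitine palmitoyltransferase, at -0.50 and -0.57. Median centring gave 18 higher and 11 lower in this list, with a median of 0.10 in place of 0.59. Lipases were called higher for 6 of 23, led by *lips-17* at 3.00 and 2.68. Fatty acid desaturases and elongases gave 0 calls of 15 in limma, with 5 at an unadjusted p under 0.05, and under median centring 2 were called higher and 1 lower. Of genes of the glyoxylate shunt, gluconeogenesis and trehalose synthesis, 7 of 17 were called higher, among them *pck-1*, which commits carbon to gluconeogenesis, at 2.90 and 1.11, although the median of that list, 0.32, was -0.46 under median centring in place of loess. The respiratory chain list had 21 of 67 called higher and 1 lower, and under that centring its median of 0.40 was -0.29, with 3 called higher and 18 lower. Without replicate 1 of *age-1(mg44)*, 6 genes of the acyl-CoA list and 7 of the respiratory list were called higher, and without replicate 2, 2 and 3 were. *cyc-2.2*, one of the cytochrome c genes, had the highest ratios of the respiratory list, at 4.27 and 4.15.

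Proteasome subunits were called lower for 9 of 33 (median -0.67), led by *rpn-1*, a scaffold of the regulatory particle, at -0.90 and -1.99. Translation factors were called lower for 10 of 41, among them *eef-2*, the elongation factor of translocation, at -0.53 and -1.14, which is at least 1.79-fold lower because it was saturated in wildtype. Replicate 2 was the lower array in both. Without it, none of either list was called, and without replicate 1, 3 and 5 were. Aminoacyl-tRNA synthetases gave 0 calls of 33 in limma, with 3 at an unadjusted p under 0.05 and 1 higher and 28 lower under median centring. They had medians of -0.06 on replicate 1 and -0.71 on replicate 2. Cytosolic ribosomal proteins were called higher for 13 of 75, but 35 of the 75 were saturated in wildtype on both arrays, 12 of them among those called, so their direction was not measured.

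Neuron markers were called higher for 2 of 20 (10%, under the 11.5% over all genes), and with median centring 5 were higher and 4 lower. Among the 2 was *unc-25*, which makes GABA, at 1.40 and 1.04. FMRFamide-like peptides gave 1 call of 30 (3.33%), and chemoreceptors gave 11 higher and 13 lower of 1235, shares of 0.891% and 1.05%. With median centring 678 chemoreceptors were called higher and 135 lower, and their median was 0.41 in place of -0.05. Muscle contractile proteins were called higher for 7 of 30 and lower for 1, or for 2 and 5 with median centring. Their medians were 0.92 on replicate 1 and 0.02 on replicate 2, against 1.21 in CY262 and 1.28 in CY251. *tni-1*, a troponin I, had 2.26 and 2.22, and *act-2*, an actin, had -1.05 and -1.90. With replicate 1 left out 0 of the list were called higher, and with replicate 2 left out 2 were. Markers of body wall muscle gave 1 call of 6 and differed between the arrays, with medians of 1.54 on replicate 1 and -0.16 on replicate 2.

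Intestinal markers were called higher for 4 of 7. *ges-1*, a gut esterase, had 1.29 and 2.25, *act-5*, the actin of microvilli, had 1.18 and 2.05, and *ifb-2*, an intestinal filament protein, had 1.12 and 1.78. *elt-2*, the GATA factor that defines the intestine, had 0.34 and 0.27 and was not called. The number called was 1 without replicate 1 of *age-1(mg44)* and 0 without replicate 2. *asp-1*, the other marker called, was saturated in both channels. The part of tissue composition in the results above was not tested.

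Among the falls, *T22B7.7* was the 1 gene called lower by at least 16-fold. It had ratios of -5.25 and -4.80 (-5.02 ± 0.41, adjusted p = 0.00137). On the 6 restored arrays its ratios lay between -1.32 and 0.19, and the groups did not overlap. The difference of -4.62 did not pass the threshold over all genes (adjusted p = 0.112). *C50E3.12*, at -2.52 and -2.53, and *pes-5*, at -2.90 and -1.86, also fell, and on the restored arrays they lay between -3.34 and -2.63 and between -3.02 and -2.59. *nasp-2*, a histone chaperone homologue, had -2.18 and -2.69. *top-2*, a topoisomerase, had -1.78 and -2.48, *dao-5*, a nucleolar protein, had -1.61 and -2.57, and *cht-3*, a chitinase, had -2.55 and -2.23.

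The mutant was then set against the 6 arrays of animals with *age-1* restored in one tissue, where the dye and the *sqt-1* allele are shared. Maternal genotype is not, since the *age-1(mg44)* animals had heterozygous mothers while CY262 and CY251 are listed without a balancer. Effects of maternal *age-1*, of the transgene insertions and of restored *age-1* cannot be told apart in this comparison. Of 18862 genes, 5 (0.0265%) were higher in *age-1(mg44)* and 0 lower at an adjusted p under 0.05, whereas 810 (4.29%) were higher and 726 (3.85%) lower at an unadjusted p under 0.05. *clec-18*, a C-type lectin, had ratios of 2.92 and 2.59 in *age-1(mg44)*, against -0.21 to 0.18 on the restored arrays (difference 2.76, adjusted p = 0.00713). It was not well above background in wildtype, and its signal in *age-1(mg44)* exceeded that in wildtype by at least 6.62-fold. *clec-128*, another lectin, had 1.88 and 2.19, against -0.21 to 0.39 (adjusted p = 0.0316). In both lectins the mutant arrays lay above all the restored ones.

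*ZK355.3* had ratios of 1.79 and 1.88, against 0.02 to 0.47, and *R10D12.15* had 1.25 and 1.38, against -0.06 to 0.20. *scl-19*, of the SCP-like extracellular protein family, averaged 1.06, against -0.35 to -0.09. All 5 sat near wildtype on the restored arrays and above it on both mutant arrays. With either *age-1(mg44)* array left out, no gene passed the threshold. The same was true without CY262 replicate 1 or 3, or CY251 replicate 2 or 3, and without CY262 replicate 2 there was 1.

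Larger differences that missed the threshold were found in effector genes. *spp-20* had 6.16 and 6.72 in *age-1(mg44)*, against 0.27 to 2.74 on the restored arrays (adjusted p = 0.165), and *spp-12* had 3.76 and 3.21, against -0.54 to 1.11 (adjusted p = 0.201). *asp-8*, an aspartyl protease, had 4.88 and 3.84, with 3.32 the highest of the restored arrays (adjusted p = 0.471). The mutant arrays lay above the restored arrays for these genes. By list, some members were higher in *age-1(mg44)* than on the restored arrays at an unadjusted p under 0.05, against 4.29% of all genes. These were 7 of 22 saposin-like proteins, 11 of 49 glutathione S-transferases and 13 of 74 cytochrome P450s. They also included 27 of 338 F-box genes, 26 of 268 nuclear hormone receptors and 6 of 65 UDP-glucuronosyltransferases. So did 4 of 10 metallothionein, *cdr* and ferritin genes, 4 of 18 epidermal antimicrobial peptides and 4 of 30 short-chain dehydrogenases. In each of these lists 0 genes differed at an adjusted p under 0.05. C-type lectins, with 9 of 237, and chemoreceptors, with 5 of 1235, were under the share of all genes. Of 30 muscle contractile genes, 13 were lower at an unadjusted p under 0.05, against 3.85% of all genes, and 0 differed at an adjusted p under 0.05. The medians of this list were 0.92 on replicate 1 and 0.02 on replicate 2, against 1.21 in CY262 and 1.28 in CY251. *mup-2*, a troponin T, had 2.25 and 1.16, against 1.75 to 3.08, so its replicate 1 lay within the restored range.

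**Figure D4:**
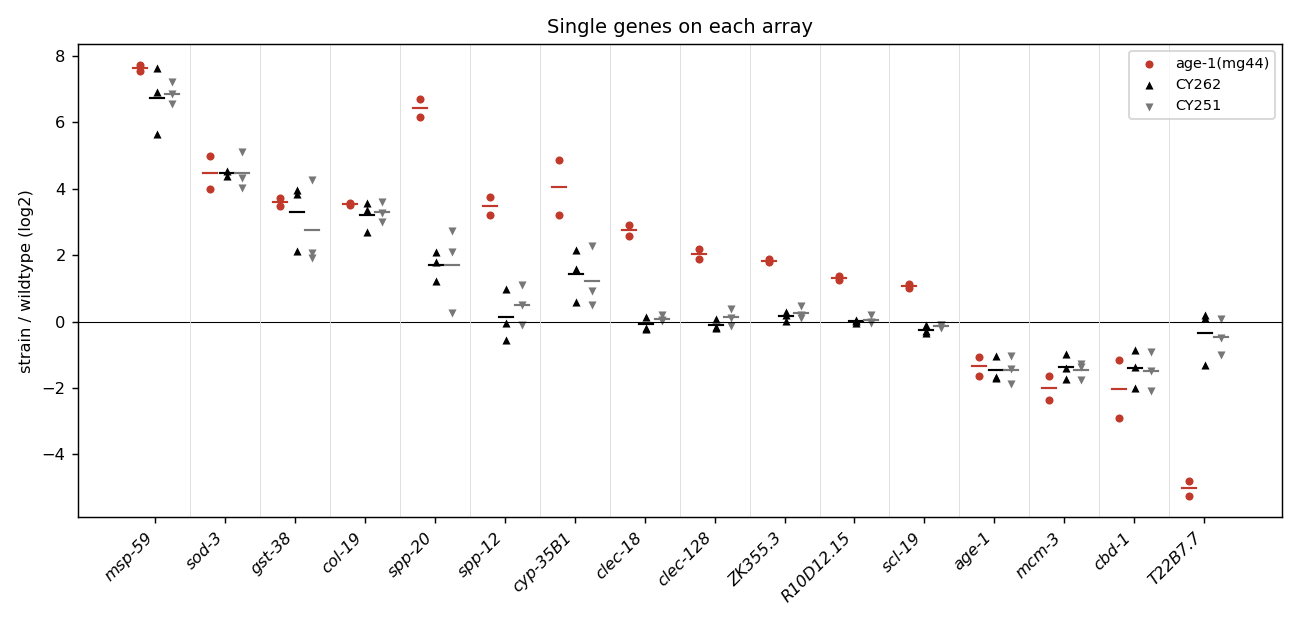
Log2 ratio to wildtype (y axis) of 16 genes on each array, *age-1(mg44)* (2 red circles), CY262 (3 black triangles) and CY251 (3 grey triangles), with a bar at each mean. *msp-59*, *sod-3* and *age-1* overlap between strains, while *spp-20*, *clec-18* and *T22B7.7* do not.

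In the plot of single genes, the 5 that passed the test of the difference have their CY262 and CY251 points near 0 and both *age-1(mg44)* points above them.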

How the data were processed

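Two-colour Agilent arrays were analysed in R 4.3.3 with limma 3.58.1. Per the file headers, Agilent Feature Extraction A.7.5.1 gave the deposited intensity values of each spot, as raw and locally measured background signal and as a signal the software had already corrected for background and dye. Also deposited were log10 ratios of wildtype (red) over strain (green), which were turned to strain over wildtype on the log2 scale where they were used as an alternative. The value table holds these for part of the spots. Its columns for the *age-1(mg44)* arrays match the scanner files, and 4 of its other columns hold the values of another CY262 or CY251 array. File names also differ from the records for CY262 replicate 2 and CY251 replicate 2, and the records were followed.

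The raw signal was corrected with normexp (offset 50) and normalized by loess within each array, without control and outlier spots. Spots of a probe were averaged and the brightest of a gene's probes was kept (18877 genes, 823 with several probes, 18124 matched to the reference). One limma model with a mean per strain was fitted to all 8 arrays. The *age-1(mg44)* mean was tested against 0 and against the mean of CY262 and CY251, with Benjamini-Hochberg adjustment at 0.05. A fold is written "at least" where a channel was saturated or not well above background, and then sets the bright group's mean against the dim group's, or its detection floor, on channel signals scaled by Aquantile. These bounds are open to dye bias. The number of arrays limits the precision. The script was tested on simulated data.

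Genes named are the 12 largest rises and falls among called genes, up to 3 called members each way of each list, the insulin pathway genes (1 gene is not reported here), *sqt-1* and the genes that differ from the restored arrays, with exceptions chosen after their values were seen (male, intestine, muscle and yolk markers, *hsp-16* genes, *elt-2* and the families of the array description). Members and lists were chosen with earlier results of these data known. Alternatives changed the background correction, normalization, probe filter, outlier spots, probe choice, variance model, test, arrays, their assignment and replicate terms.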

Additional observations from a re-analysis of the deposited data

Results flagged for a closer look

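Set apart by a difference between strains were 5 genes whose ratio to wildtype differed between *age-1(mg44)* and the arrays with *age-1* restored in one tissue, by limma's test of the difference over all genes. The difference, *age-1(mg44)* minus the mean of CY262 and CY251, was 2.76 for *clec-18*, 2.02 for *clec-128*, 1.62 for *ZK355.3*, 1.29 for *R10D12.15* and 1.26 for *scl-19* on the log2 scale. All were higher on both *age-1(mg44)* arrays than on the 6 others. The probe of *R10D12.15* lists 2 genes. No strain has the 4 samples that a test for a lone sample needs. Under the alternatives, 0 to 26 genes passed this test.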

How the results depend on the processing

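As reported, 2174 genes were higher, 1484 lower and 5 differed from the restored arrays. With no background subtraction 1229 were higher. With median centring in place of loess 5486 were higher, 5654 lower (49.2% of calls higher, against 59.4% as reported) and 0 differed, and 27 calls had the opposite direction. With the Agilent processed signal, with or without loess, 1 gene differed. The 2 *age-1(mg44)* arrays alone gave 785 higher and 72 lower. The value table gave 2320 lower (47.1% of calls higher, median of all genes -0.11). With CY262 and CY251 assigned by file name 26 genes differed, and without the array of the lone extraction day, which is CY262 replicate 2, 1 did. Assigned by the value table, an alternative chosen after seeing the data, 7 did. The test named here the methods' t-test set the 2 strain channels of the *age-1(mg44)* arrays against their 2 wildtype channels, unpaired. Each signal was divided by the mean of its channel. The paper names more wildtype replicates and also set a minimum fold change, so the counts are not those of its own procedure. This t-test called 8845 higher at an unadjusted 0.05, where 10029 genes passed. After Benjamini-Hochberg adjustment it called 0 higher and 0 lower, and its median of all genes was 0.56. The cause of these changes was not tested.

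Leaving out each array in turn gave 250 to 2223 genes higher, 28 to 1397 lower and 0 to 6 that differed. The lowest counts were without replicate 2 of *age-1(mg44)*. Of 7 pairs of same-numbered arrays 6 deviated together (correlations 0.231 to 0.785). CY262 and CY251 replicates 2, whose assignment differs between records and file names, did not (-0.162), so the numbers were not taken as pairs. The replicate 1 arrays deviated together most (0.607 to 0.785). Some arrays of unlike number also did, such as CY262 replicate 2 and CY251 replicate 3 (0.494). The reported p-values take no account of such shared deviation. With the replicate block 2759 genes were higher, 2606 lower and 0 differed.

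Of 230 named genes 27 changed sign somewhere. With one or the other *age-1(mg44)* array left out, *ist-1* ranged between -0.01486 and 0.19, *pdk-1* between -0.44 and 0.05232 and *daf-16* between -0.17 and 0.009958. Median centring gave *akt-2* -0.28, *sgk-1* -0.05996, *daf-2* -0.75, *pmp-5* -0.07635, *mrpl-41* -0.0005717, *mrps-7* -0.34, *nlp-10* -0.41 and *bath-8* 0.06179. The methods' t-test gave *pptr-1* 0.04044, *daf-2* -0.38, *daf-1* 0.37, *hsf-1* 0.11, *gst-44* 0.59, *cyp-35A3* 0.20, *lin-42* 0.52, *ptc-1* 0.31, *nas-27* 0.31, *tbx-37* 0.04988, *sdz-36* 0.67, *pes-1* 0.50, *mrps-7* -0.22, *nlp-10* -0.20, *nlp-66* 0.40, *srg-32* 0.35, *srj-54* 0.50, *nhr-181* 0.20, *skr-11* 0.34 and *bath-8* 0.71. Apart from arrays left out, the methods' t-test and the 2 arrays alone, 149 named genes kept their direction and lost no call. Genes that gained a call are counted among them. Saturation and background limit bright and dim probes to bounds.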

Other observations

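Families named by the array's own description column, chosen after their values were seen, gave the following counts. Of 45 genes described as protein-tyrosine phosphatases 10 were called higher, 9 of them at least 4-fold, and 3 lower, and *C46A5.1* led the rises at 3.92 and 3.19 on the 2 arrays. Of 85 serine/threonine kinases 20 were called higher, 9 of them at least 4-fold, and 16 lower. With no background subtraction 1 of these phosphatases and 3 of the kinases were called higher, and with either *age-1(mg44)* array left out 1 and 1 were. Of 57 helicases 23 were called lower and 0 higher, and of 45 RNA-binding proteins 17 were called lower and 1 higher. Without replicate 1 of *age-1(mg44)* 5 helicases and 7 RNA-binding proteins were called lower, and without replicate 2, 0 and 0 were. Alcohol dehydrogenases were called higher for 10 of 22 and carboxylesterases for 8 of 21, with none lower. Without replicate 1 those counts were 4 and 5, and without replicate 2 they were 2 and 4. Of the 2174 genes called higher 1385 have the description "Unknown", as have 952 of the 1484 called lower.

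Large families of regulators gave calls in both directions. Nuclear hormone receptors were called higher for 47 of 268 and lower for 5, led by *nhr-287* at 1.33 and 1.96 and *nhr-90* at 1.37 and 1.82. The higher calls numbered 9 without replicate 1 of *age-1(mg44)* and 3 without replicate 2. Median centring called 95 of these receptors higher and 50 lower. F-box genes, which select proteins for degradation, were called higher for 39 of 338 (11.5%, the share over all genes) and lower for 16 (4.73%, against 7.87%), led by *fbxb-44* at 3.29 and 3.33. The higher calls were 9 without replicate 1 and 2 without replicate 2, and median centring called 113 F-box genes higher and 40 lower. Of Skp1-related, BATH and MATH genes, 10 of 108 were called higher (9.26%, under the share over all genes) and 3 lower, with *skr-5* at 2.26 and 2.27. With median centring 32 were higher and 27 lower. Transthyretin-like genes were called higher for 9 of 50 (18%, against 11.5% over all genes), led by *ttr-12* at 2.90 and 3.42. Their median was 0.35 on replicate 1 and 1.31 on replicate 2.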
